A study of Mus musculus with 4 samples.

Results

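The PDGF ligands and receptors, 6 genes of the 54532 in the count table, were followed in cells labelled macrophages and described as tumor-associated macrophages (TAMs) isolated from NB9464 neuroblastomas. In the SYK WT libraries, macrophage markers summed to 776 to 1122 CPM and fibroblast markers to 12487 to 14384 CPM (normalized counts, defined below). The collagen genes Col1a1 and Col3a1 made up nearly all of the fibroblast sum, so these sums do not compare numbers of cells. Among the other fibroblast markers, Dcn was at 93.0 and 92.3 CPM and Fap at 6.78 and 8.50 CPM in SYK WT. The rule took every row whose Ensembl identifier maps to 1 of 6 symbols, which are the 4 ligand genes Pdgfa, Pdgfb, Pdgfc and Pdgfd and the 2 receptor genes Pdgfra and Pdgfrb. The rule used no measured value, but the members were chosen with earlier results of these data known. All 6 genes passed the filter on low counts that left 16451 genes for testing.

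Platelet-derived growth factors are secreted dimers that act mainly on mesenchymal cells. The PDGF-A and PDGF-C chains bind the receptor tyrosine kinase PDGFRα, PDGF-B binds both PDGFRα and PDGFRβ, and PDGF-D acts mainly through PDGFRβ. PDGF-A and PDGF-B are cut to their active form inside the cell by furin-like convertases, whereas PDGF-C and PDGF-D are secreted with a CUB domain that proteases such as tissue plasminogen activator and urokinase remove outside the cell. PDGFRα is typical of fibroblasts and mesenchymal progenitors and PDGFRβ of pericytes and vascular smooth muscle, whereas endothelial cells, platelets and macrophages are known sources of PDGF-B. In tumors the pathway is known for recruiting stroma and covering vessels with pericytes.

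NB9464 is a murine neuroblastoma line with amplified MYCN. Syk WT and Syk KO mice on the C57BL/6 background received 4000000 NB9464 cells with no treatment, and tumors were collected on day 40. The knockout comes from crossing floxed Syk with LysM-Cre, whose recombinase is expressed from the Lyz2 locus in myeloid cells, so Syk is targeted in myeloid cells and not in the implanted tumor cells. Whether the control mice carry the floxed allele or the Cre is not given in the sources used here. Magnetic beads for CD11b and F4/80 were used to collect the cells. Libraries were made from polyA-enriched RNA, 2 labelled SYK WT (M7 and M8) and 2 labelled SYK KO (M9 and M10). The study's methods give the age of mice at injection as a range of weeks, which the labels do not repeat for these animals. How many animals a library holds is not stated in the labels, so p-values measure the spread between these libraries, which may be technical. The labels also say that the RNA came from bone marrow-derived macrophages, and the series title names an adoptive transfer, so the exact origin of the cells is not settled by the labels.

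Promoter sequence was at hand for 4 of the 6 genes and is shown for the 3 whose window lies outside annotated exons. Pdgfra and Pdgfc are shown because their transcripts fell, and Pdgfd because it had the lowest level per kb of exon of the 6. Each run is the 250 bases before the RefSeq gene start, 5′ to 3′ on the plus strand of GRCm38.p6, with capitals marking a TATAAA match. Pdgfra lies at chr5:75152001-75152250, Pdgfc at chr3:81036166-81036415 and Pdgfd at chr9:6168236-6168485.
Pdgfra: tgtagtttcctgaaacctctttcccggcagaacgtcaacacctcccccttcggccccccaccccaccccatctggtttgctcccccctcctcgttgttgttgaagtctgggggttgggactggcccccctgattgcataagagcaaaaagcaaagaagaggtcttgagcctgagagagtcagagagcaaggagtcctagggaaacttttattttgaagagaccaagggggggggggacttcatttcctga
Pdgfc: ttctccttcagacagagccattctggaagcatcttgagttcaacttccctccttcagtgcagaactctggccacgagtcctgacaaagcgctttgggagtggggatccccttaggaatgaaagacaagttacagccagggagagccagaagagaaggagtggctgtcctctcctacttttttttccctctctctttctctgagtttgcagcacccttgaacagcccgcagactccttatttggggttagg
Pdgfd: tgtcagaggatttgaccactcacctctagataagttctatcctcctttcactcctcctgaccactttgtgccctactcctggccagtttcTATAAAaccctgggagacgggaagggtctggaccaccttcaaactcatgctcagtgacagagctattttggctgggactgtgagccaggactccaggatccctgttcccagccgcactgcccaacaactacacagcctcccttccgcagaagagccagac
GC content was 54.4% in the Pdgfra window, 50.8% in that of Pdgfc and 53.6% in that of Pdgfd, against a median of 52.4% over 32841 windows of the same length. The windows were searched on both strands for GGGCGG, the GC box bound by Sp1, ACGTG, the core of the hypoxia response element, TATAAA, the TATA box, GAGGAA, a core bound by PU.1, and TGACTCA, an AP-1 site. Pdgfd held 1 TATAAA, which 12.4% of all windows hold. How far it lies from a transcription start was not measured. A short stretch after the RefSeq start was found in 1 of 3 annotated transcripts of Pdgfc, 0 of 3 of Pdgfd and 0 of 9 of Pdgfra. Whether these windows are the promoters in use is therefore not known. None of these motifs was in the Pdgfra or Pdgfc window, and the other shares over all windows were 32.7% for GGGCGG, 16.6% for ACGTG, 23.3% for GAGGAA and 4.46% for TGACTCA. The 2 Pdgfa windows overlap annotated exons and had GC contents of 66.4% and 72.4%, with 1 GGGCGG in the first, and 2 GGGCGG and 1 GAGGAA in the second.

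The libraries held 20755886 to 23518045 counts, and 3 counts, taken as the detection floor, corresponded to 0.109 to 0.163 CPM (counts relative to the TMM-normalized library size). This floor takes in counting error alone. Syk was at 27.9 and 23.2 CPM in the SYK WT libraries and at 196 and 160 CPM in the SYK KO libraries. Its log2 fold change was 2.80 (SE 0.194, adjusted p = 0.000674), a direction opposite to the label on this scale. Scaled to macrophage markers, Syk was at -0.019 (adjusted p = 0.973), and scaled to pan-leukocyte genes at -0.83 (adjusted p = 0.0303). Whether the labels are right was not tested, so every direction below is for the libraries as labelled. With TMM, Lyz2 fell from 252 ± 61.9 CPM (SD, n = 2) to 14.4 ± 8.18 CPM (log2 fold change -4.13, SE 0.433, adjusted p = 0.00156). Mitochondrial genes took 2.20% and 2.34% of the counts in M7 and M8, 6.00% in M9 and 15.9% in M10. Adjusted p-values here and below are Benjamini-Hochberg values over the genes tested, from the quasi-likelihood test of edgeR, and a gene was called at an adjusted p under 0.05. For a single gene, the smallest p of an exact permutation test on 4 libraries is 0.333, two-sided.

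Both receptors and 1 ligand, Pdgfc, fell in the libraries labelled SYK KO, and no member was called higher. The 3 genes called lower of 6 stand beside 16.7% of the genes tested that were called lower and 22.7% that were called higher. At an unadjusted p under 0.05, Pdgfb was also higher and Pdgfd lower. At that threshold 4572 of the 16451 genes tested were higher and 3639 lower. In 4 members both SYK KO libraries lay below both SYK WT libraries, as in 37.2% of genes tested, and in Pdgfb both lay above, as in 38.0%. The DESeq2 Wald test called the same 3 genes lower and also Pdgfb higher, where it called 15.3% of its genes lower and 18.9% higher.

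**Figure D1:**
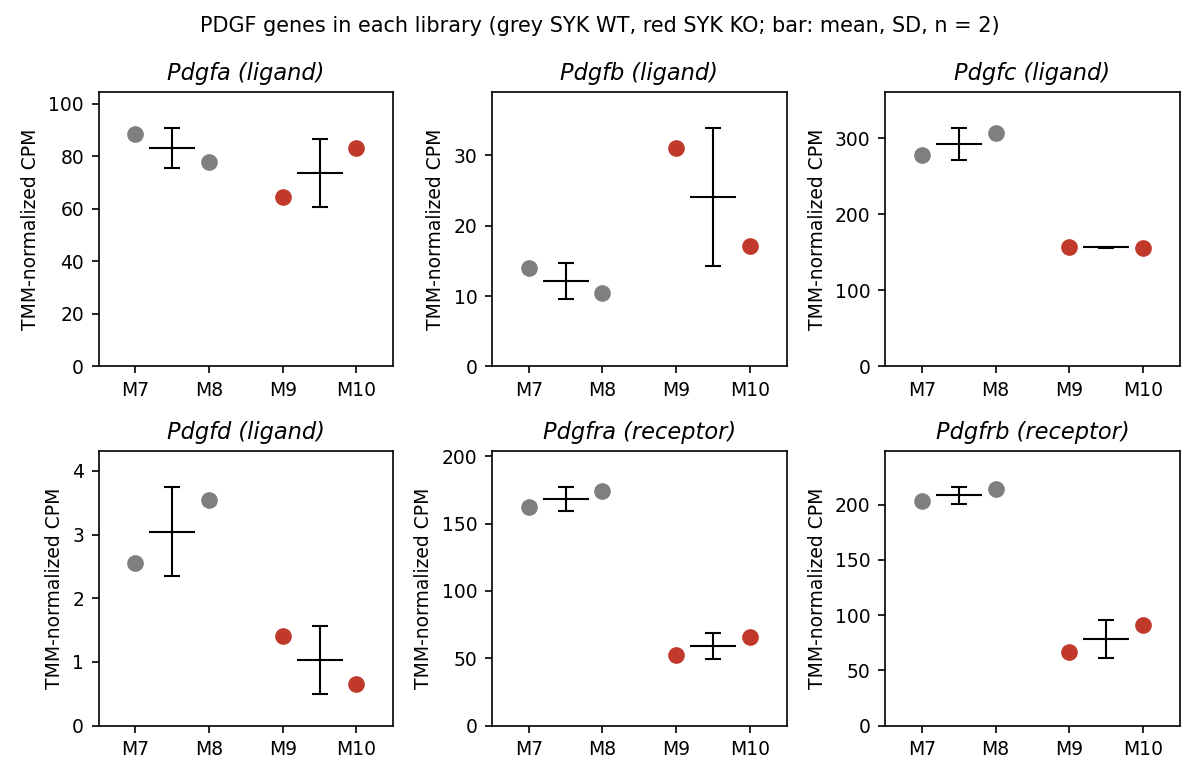
TMM-normalized CPM (y axes, from 0) of each PDGF gene in the 4 libraries (x axes), grey for SYK WT and red for SYK KO, with the mean and SD of 2 libraries. Pdgfc, Pdgfd, Pdgfra and Pdgfrb were lower in M9 and M10 than in M7 and M8 without overlap. Pdgfa overlapped between the groups, and Pdgfb was spread from 17.1 to 31.0 CPM in SYK KO.

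Pdgfra (ENSMUSG00000029231, GRCm38 chromosome 5, 75152292 to 75198215, plus strand), the receptor for PDGF-A and PDGF-C, was counted 4444, 4289, 1082 and 1213 times in M7, M8, M9 and M10. Its normalized levels were 162 and 175 CPM in SYK WT and 52.5 and 66.1 CPM in SYK KO. The groups did not overlap, and the lower SYK WT library held more than any SYK KO library. The mean fell 2.84-fold, from 168 ± 8.85 to 59.3 ± 9.59 CPM (SD, n = 2 each), with a log2 fold change of -1.50 (SE 0.179, 95% interval -1.94 to -1.07, adjusted p = 0.00213). 

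Pdgfrb (ENSMUSG00000024620, chromosome 18, 61045150 to 61085061, plus strand), the receptor that keeps pericytes on vessels, was counted 5573, 5252, 1368 and 1666 times in the same order. It stood at 203 and 214 CPM in SYK WT and at 66.4 and 90.8 CPM in SYK KO, again without overlap. The fall was 2.65-fold, from 208 ± 7.45 to 78.6 ± 17.2 CPM (SD, n = 2 each), with a log2 fold change of -1.41 (SE 0.199, 95% interval -1.89 to -0.93, adjusted p = 0.00364). When any 1 library was left out, log2 fold changes were between -1.67 and -1.44 for Pdgfra and between -1.64 and -1.29 for Pdgfrb, and both remained called. Of the genes tested, 12.4% had a log2 fold change at or below that of Pdgfrb. Csf1r, the receptor for the macrophage growth factor CSF1 and the next class III receptor gene downstream, starts 15.5 kb after the end of Pdgfrb and went the other way, with a log2 fold change of 2.61 (SE 0.284, adjusted p = 0.00167).

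The receptors moved together. The Pdgfra:Pdgfrb ratio, in counts per kb of exon, was 0.436, 0.446, 0.432 and 0.398 in M7, M8, M9 and M10, so Pdgfrb stood above Pdgfra in every library while both fell. The mean log2 ratio differed by -0.09 between SYK KO and SYK WT (exact permutation p = 0.333, adjusted p = 0.400 over the 6 ratios computed, two-sided). This ratio was added after the values had been seen. When genes were compared by the distance between their log2 CPM profiles over the 4 libraries, each centred on its own mean, Pdgfra and Pdgfrb were 0.125 apart. Only 34 of the 14262 genes with a mean of at least 1 CPM were closer to Pdgfra, and 27 were closer to Pdgfrb. These distances rest on 4 libraries that share their depth and preparation, and they are a description.

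Pdgfc (ENSMUSG00000028019, chromosome 3, 81036416 to 81214040, plus strand), a ligand of PDGFRα, had the highest level per kb of exon of the 6 genes. Its counts were 7604, 7551, 3228 and 2862, or 277, 307, 157 and 156 CPM, in M7, M8, M9 and M10. The SYK KO libraries were within 1 CPM of each other and below both SYK WT libraries. The mean fell 1.87-fold, from 292 ± 21.2 to 156 ± 0.542 CPM (SD, n = 2 each), with a log2 fold change of -0.90 (SE 0.162, 95% interval -1.29 to -0.51, adjusted p = 0.00770). Without M8 the log2 fold change was -0.84 and no longer passed the threshold (adjusted p = 0.0906).

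Pdgfa (ENSMUSG00000025856, chromosome 5, 138976014 to 138997370, minus strand), the other main PDGFRα ligand, was counted 2433, 1916, 1333 and 1524 times. It stood at 88.7 and 78.0 CPM in SYK WT and at 64.7 and 83.0 CPM in SYK KO, and M10 lay between the SYK WT libraries. The means were 83.3 ± 7.59 and 73.9 ± 13.0 CPM (SD, n = 2 each), and the log2 fold change of -0.17 (SE 0.182, 95% interval -0.61 to 0.26, adjusted p = 0.478) did not pass the test. An antisense gene, 6330403L08Rik, overlaps Pdgfa and was counted 886, 779, 333 and 263 times, with a log2 fold change of -1.07 (SE 0.177, adjusted p = 0.00591). Whether the counting used strand is not stated, so reads of the overlap cannot be told apart between these 2 genes. Genes overlapping the other members held at most 10 counts in any library.

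Pdgfb (ENSMUSG00000000489, chromosome 15, 79995874 to 80014977, minus strand), the ligand of both receptors and the main one for pericytes, was the only member with a higher mean in SYK KO. Its counts of 382, 255, 639 and 314 gave 13.9, 10.4, 31.0 and 17.1 CPM in M7, M8, M9 and M10. Both SYK KO libraries were above both SYK WT libraries, but M9 stood well apart from M10. The means were 12.2 ± 2.51 and 24.1 ± 9.84 CPM (SD, n = 2 each). The log2 fold change was 0.99 (SE 0.328, 95% interval 0.19 to 1.78, unadjusted p = 0.0222, adjusted p = 0.0546). This value rested on which SYK KO library was kept, since it was 0.41 without M9 (adjusted p = 0.174) and 1.36 without M10 (adjusted p = 1.93e-05).

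Pdgfd (ENSMUSG00000032006, chromosome 9, 6168584 to 6378850, plus strand), a PDGFRβ ligand, had few counts, above all in SYK KO. It was counted 70 and 87 times in SYK WT and 29 and 12 times in SYK KO, or at 2.55, 3.54, 1.41 and 0.654 CPM. The groups did not overlap, with means of 3.05 ± 0.699 and 1.03 ± 0.533 CPM (SD, n = 2 each). Its log2 fold change of -1.55 (SE 0.576, 95% interval -2.94 to -0.16, unadjusted p = 0.0337, adjusted p = 0.0746) was as large as those of the receptors, but at these counts its interval was wider. The log2 fold change was -1.77 without M7, -1.31 without M8, -2.30 without M9 and -1.10 without M10.

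**Figure D2:**
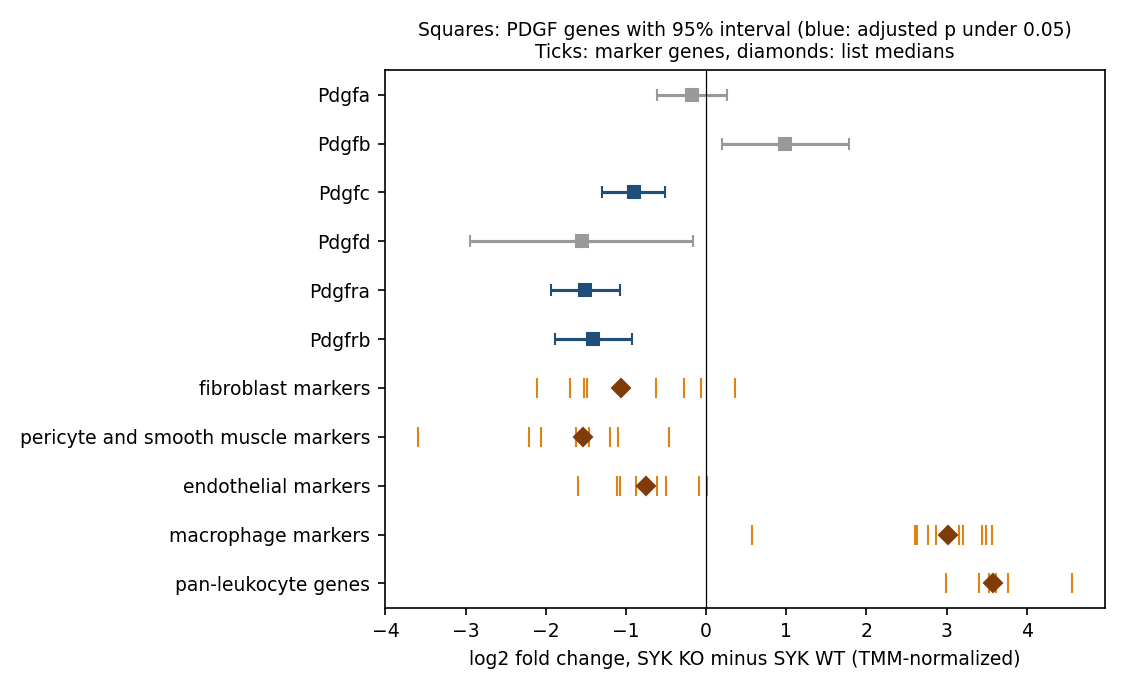
Log2 fold change of SYK KO against SYK WT (x axis) for the 6 PDGF genes (squares with 95% interval, blue where the adjusted p was under 0.05) and for 5 lists of marker genes (ticks for genes, diamonds for medians). Pdgfra at -1.50 and Pdgfrb at -1.41 lie near the median of the pericyte and smooth muscle markers at -1.54, whose genes run from -3.60 to -0.46. Both lie below the fibroblast median of -1.06, while the macrophage and leukocyte medians lie at 3.01 and 3.57.

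Levels of different genes were set against each other per length, as counts per kb of exon scaled to the same total in each library. In SYK WT the order was Pdgfc at 218 and 232, Pdgfrb at 148 and 150, Pdgfa at 114 and 96.2, Pdgfra at 64.6 and 67.0, Pdgfb at 13.4 and 9.59, and Pdgfd at 3.23 and 4.32. No neighbours in this order overlapped. In SYK KO the order was Pdgfc at 67.7 and 50.7, Pdgfa at 45.6 and 44.1, Pdgfrb at 26.7 and 27.4, then Pdgfb at 16.4 and 6.80 and Pdgfra at 11.5 and 10.9, which overlapped, and Pdgfd at 0.981 and 0.343. Pdgfa thus passed Pdgfrb in rank, and Pdgfb reached the level of Pdgfra. This scale has no TMM factor, so it serves to order genes within a library and not to compare libraries.

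Ligands were then compared with the receptors they bind, since a ratio within a library does not depend on how libraries are scaled. It still depends on the mixture of cells, which cannot be told apart here from a change within cells. The Pdgfb:Pdgfrb ratio was 0.0902 and 0.0639 in SYK WT and 0.615 and 0.248 in SYK KO. This was the largest shift, a 5.14-fold higher ratio, or a log2 difference of 2.36. Pdgfa:Pdgfra went from 1.76 and 1.44 to 3.96 and 4.04, a 2.52-fold higher ratio with SYK KO libraries almost equal to each other. Pdgfc:Pdgfra went from 3.37 and 3.47 to 5.88 and 4.65, 1.53-fold higher, as Pdgfc fell less than its receptor. Summed over all ligands and both receptors, the ratio was 1.64 and 1.58 in SYK WT and 3.42 and 2.66 in SYK KO, 1.88-fold higher. In each of these 4 ratios both SYK KO libraries were above both SYK WT libraries, and each had the smallest p this design allows (exact two-sided permutation p = 0.333, adjusted p = 0.400 over 6 ratios), so none could pass a threshold of 0.05. Pdgfd:Pdgfrb was 0.0218 and 0.0288 in SYK WT and 0.0368 and 0.0125 in SYK KO, which overlapped (exact permutation p = 1).

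**Figure D3:**
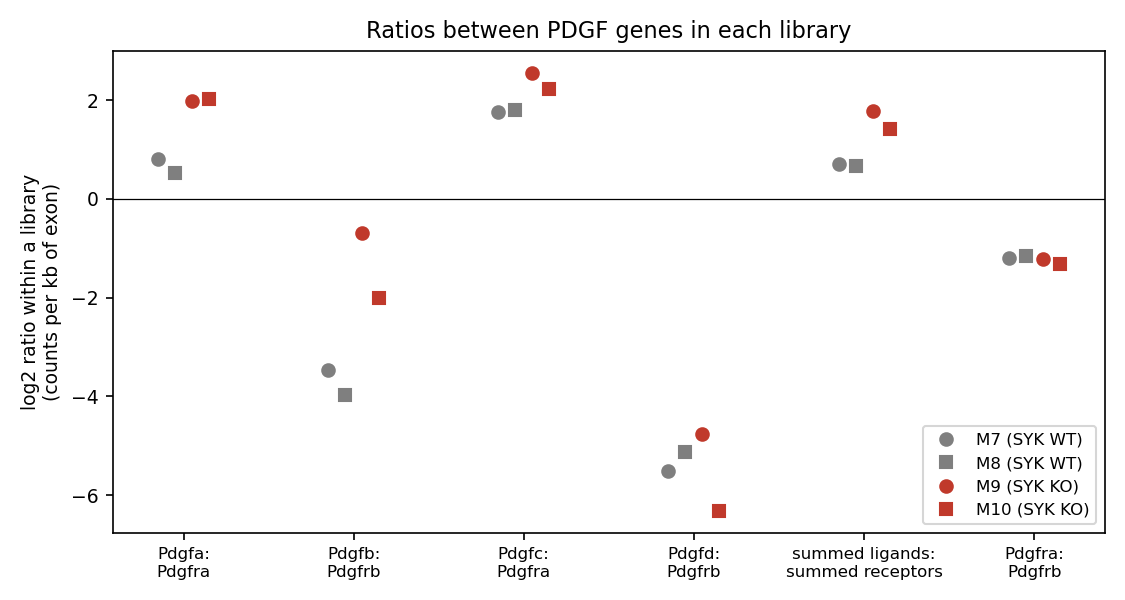
Log2 ratio between PDGF genes in counts per kb of exon (y axis) for 6 ratios (x axis), with grey for SYK WT, red for SYK KO and 1 point per library. SYK KO points lie above SYK WT points for Pdgfa:Pdgfra, Pdgfb:Pdgfrb, Pdgfc:Pdgfra and the summed ratio, and the 4 points of Pdgfra:Pdgfrb lie together.

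Genes with the most similar profiles over the 4 libraries, out of 14262, were named for each member by distance alone. For Pdgfra they were 2610507I01Rik (0.016), Rnf208 (0.019) and Gm14416 (0.025), and for Pdgfrb Agrn (0.044), Enpp5 (0.046) and Slc22a21 (0.055). Agrn encodes agrin, a basement membrane proteoglycan. Pdgfc was nearest to Rint1 (0.015), Ephb4 (0.027) and Chuk (0.036), and Pdgfa to Spats2 (0.032), Ddx25 (0.037) and Map1b (0.041). Pdgfb was nearest to Trappc6b (0.058), Mrpl19 (0.071) and Dnase1l1 (0.073), and Pdgfd, with few counts, to Dchs1 (0.16), 2010109I03Rik (0.17) and Gm14002 (0.18). Among the members, Pdgfc was 0.657 from Pdgfra and 0.617 from Pdgfrb, and Pdgfb was the farthest from both receptors, at 2.61 and 2.56.

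The proteases and carriers of the ligands changed in both directions. Of 8 genes listed for ligand processing and binding, 7 were tested, 2 rose and 2 fell, beside 22.7% and 16.7% of all genes tested. The median log2 fold change was -0.26 against 0.016 over all genes tested. Plau, the urokinase that can activate PDGF-D, rose by 2.85 (SE 0.352, adjusted p = 0.00237), and Furin, the convertase of PDGF-A and PDGF-B, rose by 1.28 (SE 0.204, adjusted p = 0.00513). Plat, the tissue plasminogen activator that activates PDGF-C, fell by 1.76 (SE 0.163, adjusted p = 0.00111). Sparc, a matrix protein that binds PDGF-B, fell by 1.66 (SE 0.213, adjusted p = 0.00263). Of the 3 co-receptors and related receptors, Nrp1, a co-receptor of several growth factors, rose by 1.29 (SE 0.170, adjusted p = 0.00289), the receptor-like Pdgfrl fell by 2.75 (SE 0.430, adjusted p = 0.00494), and Lrp1 had a log2 fold change of -0.22 and was not called.

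Genes acting after the receptors changed in both directions. Among 27 receptor-proximal signalling genes, all tested, 7 rose, 4 fell and 16 were not called, beside 22.7% higher and 16.7% lower over all genes tested, with a median log2 fold change of 0.17. Pik3cb, a catalytic PI3-kinase subunit, rose by 2.34 and Mapk3, the ERK1 kinase, by 1.27. Plcg1, the phospholipase recruited to both receptors, fell by 1.54 (SE 0.158, adjusted p = 0.00148), as far as the receptors. Without M7 or M8, the calls of the kinase Map2k1 (log2 fold change 0.92) and the adaptor Shc1 (-0.77) were lost, with adjusted p-values of 0.0766 to 0.145 in edgeR's quasi-likelihood test. The Src family kinase Yes1 (log2 fold change -0.996) lost its call without M8 (adjusted p = 0.0604). The list's count of genes higher was 2 without M7 and 2 without M8, and 11 without M10, and the count lower was 2 without M7 and 1 without M8.

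Over all genes tested, 22.7% were called higher and 16.7% lower, beside which the lists of this paragraph are read. Of 6 genes for receptor turnover and dephosphorylation, 3 rose and none fell on the TMM scale, with a median of 0.70. These were the tyrosine phosphatases Ptprj (1.75), Ptpn1 (1.21) and Ptpn2 (0.86), the last of which was not called without M8 (adjusted p = 0.163), and 5 were called higher without M10. Of 10 genes known to be induced early by PDGF, 5 rose and 1 fell, with a median of 0.41, and 3 rose without M7 or without M8. The chemokine gene Ccl2 rose by 3.20, the transcription factor gene Myc by 1.52 and Ier3 by 1.46, whereas Fosb fell by 1.44. All of these genes also answer to many other stimuli. Among the 7 other class III receptors and their ligands, Flt3 rose by 3.91 and Csf1r by 2.61, while the CSF1R ligands Il34 (-1.61) and Csf1 (-1.21) fell, the first not called without M7 (adjusted p = 0.178) or without M8 (adjusted p = 0.176).

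Markers of other cell types were read beside these results, with 22.7% of all genes tested called higher and 16.7% lower. Pericyte and smooth muscle markers were present in every library and 7 of 8 fell. The median log2 fold change was -1.54, and the summed level was 522 to 539 CPM in SYK WT and 135 to 170 CPM in SYK KO. Rgs5 (-3.60), Myh11 (-2.21) and Abcc9 (-2.05) fell most. Of the 8 fibroblast markers 4 fell, with a median of -1.06 and summed levels of 12487 to 14384 CPM in SYK WT and 4022 to 4921 CPM in SYK KO. Nearly all of this sum came from Col1a1 and Col3a1. Postn fell by 2.11, Col3a1 by 1.69 and Col1a1 by 1.52. The 4 markers not called were Lum (-0.63), Dcn (-0.28), Fap (-0.067) and Dpt (0.36). In bulk RNA, fewer cells of a type and less RNA per cell cannot be told apart.

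All 10 macrophage markers rose, with a median of 3.01 and summed levels of 776 to 1122 CPM in SYK WT and 5799 to 9212 CPM in SYK KO, and all 6 pan-leukocyte genes rose, with a median of 3.57 and summed levels of 259 to 349 and 3025 to 4221 CPM. The collagens Col1a1 and Col3a1 thus had more counts in SYK WT than the macrophage markers together, in cells labelled macrophages. Macrophage markers such as Fcgr1 (3.57), Cd14 (3.49) and Itgam (3.44) and leukocyte genes such as Cd52 (4.56), Coro1a (3.77) and Laptm5 (3.62) moved opposite to the PDGF receptors. Endothelial markers were closer to level, with 3 of 8 lower, a median of -0.75 and summed levels of 199 to 200 and 139 to 152 CPM. Kdr fell by 1.07, and the calls of Tek (-1.60) and Tie1 (-1.11) were lost without M7 or without M8 (adjusted p-values 0.0866 to 0.307).

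Pdgfb was read beside the megakaryocyte and platelet markers. Of 8, 5 were tested, 2 rose and 1 fell, with summed levels of 154 to 201 CPM in SYK WT and 409 to 735 CPM in SYK KO. The chemokine genes Pf4 (log2 fold change 3.19) and Ppbp, with 84, 58, 2461 and 1007 counts, rose and are also known in macrophages. The platelet integrin Itga2b had a log2 fold change of -1.16 and was not called without M7 (adjusted p = 0.263) or without M8 (adjusted p = 0.291). Among neuroblastoma markers, Dbh and Th, enzymes of catecholamine synthesis, were at 0 in every library, 3 genes were tested, and summed levels of the list were 262 to 302 CPM in SYK WT and 182 to 289 CPM in SYK KO, nearly all from Hand2. Gata3 (2.82) was the only one called, on 5 to 40 counts, and not without M7 (adjusted p = 0.267) or without M8 (adjusted p = 0.212).

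The direction of the PDGF genes depended on what the libraries were scaled to. Scaled to the 8 fibroblast markers, Pdgfra and Pdgfrb had log2 fold changes of -0.57 (adjusted p = 0.0846) and -0.48 (adjusted p = 0.150) and were not called, Pdgfc was at 0.048, and Pdgfa (0.75) and Pdgfb (1.96) were called higher, where 50.7% of genes were higher and 3.83% lower. Scaled to the 8 pericyte and smooth muscle markers, a scaling added after the data had been seen, the receptors were at 0.24 (adjusted p = 0.479) and 0.32 (adjusted p = 0.338), Pdgfa at 1.57, Pdgfb at 2.82 and Pdgfc at 0.86 were called higher, and 73.1% of genes were higher and 1.34% lower. Scaled to the 10 macrophage markers, all 6 members were called lower, with Pdgfb at -1.88 and Pdgfra at -4.30, as were 87.3% of genes. The receptors therefore fell relative to the typical gene and to the macrophage markers, whereas their differences relative to the mesenchymal markers did not pass the test.

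**Figure D4:**
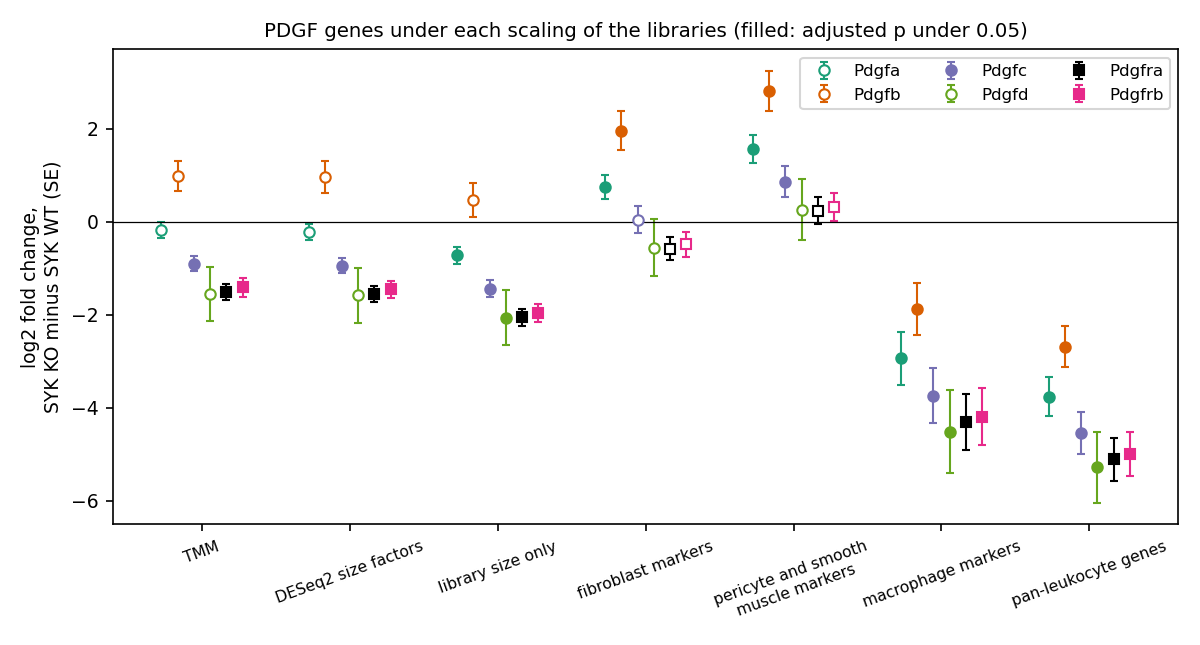
Log2 fold change of SYK KO against SYK WT with its SE (y axis) of the 6 PDGF genes under 7 scalings of the libraries (x axis), circles for ligands, squares for receptors, filled where the adjusted p was under 0.05. The receptors lie near -1.50 and -1.41 with TMM, at 0.24 and 0.32 with pericyte and smooth muscle markers and under -4 with macrophage markers. Pdgfd, Pdgfra and Pdgfrb stay below Pdgfc, Pdgfa and Pdgfb throughout. Each scaling shifts all genes by nearly the same amount, so this order had to hold and adds no support.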

How the data were processed

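Reads were mapped and counted by the authors, with STAR 2.6.1d, Salmon 1.4.0, Picard 2.26, SAMtools 1.9 and MultiQC 1.11 and the build mm10 in the submitters' processing notes. The deposited values are raw whole-number counts for each Ensembl gene. How they were made from Salmon's estimates, and whether strand was used, is not given in the sources used here. The labels name paired reads, the study's methods single reads in triplicate. Of 54532 genes, 54495 matched GENCODE M21, which gave symbols, positions and exon lengths. Groups came from the genotype labels. Counts were filtered (filterByExpr) and normalized (TMM factors 1.22, 1.19, 0.876 and 0.787 for M7 to M10). They were tested in edgeR 4.0.16 (glmQLFit and glmQLFTest, R 4.3.3) with Benjamini-Hochberg adjustment. The method was run on simulated counts in which few genes changed, equally in both directions and with the same variability for all genes. That check cannot tell how the method behaves where as many genes change as here. The study's tool, DESeq2 1.42.0, was an alternative, without shrinkage. Standard errors are the absolute log2 fold change over the square root of F. Counts of replicates differed by more than sampling noise (chi-square per degree of freedom 55.8 in SYK WT and 185 in SYK KO).

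The members and the gene lists were chosen with earlier results of these data known. Genes were named by rule: the members, Syk and Lyz2, up to 3 called genes with the largest change per list and direction, and the 3 nearest profiles of each member. Promoters are from RefSeq on GRCm38.p6. Alternatives were other scalings, filters and thresholds, the DESeq2 test, and each library left out in turn, with the lone library of its group then assumed to vary like the other group. Some genes of the neuroblastoma list are not reported here.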

Additional observations from a re-analysis of the deposited data

How the results depend on the processing

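Pdgfd rested on 12 to 87 counts per library, and the scaling of the libraries moved every PDGF gene. Cause was not tested in any case. The median log2 fold change of all genes moved by -0.53 with library size only, -2.81 with macrophage, -3.62 with pan-leukocyte, 0.94 with fibroblast and 1.76 with pericyte and smooth muscle markers, the last added after the data were seen. With library size only, Pdgfa (-0.72) and Pdgfd (-2.06) were also called, making 5 members lower and 0 higher, and 1677 genes were higher and 5411 lower. With macrophage markers, Pdgfa was -2.94, Pdgfb -1.88 and Pdgfd -4.51, 6 members were lower, and 125 genes were higher and 14360 lower. There Syk was -0.019, Plau -0.0082, Furin -1.57, Nrp1 -1.51, Pik3cb -0.51, Mapk3 -1.58, Map2k1 -1.96, Ptprj -1.09, Ptpn1 -1.63, Ptpn2 -1.95, Myc -1.30, Ier3 -1.43 and Csf1r -0.19. With pan-leukocyte genes, Pdgfa was -3.75, Pdgfb -2.68 and Pdgfd -5.27, 6 members were lower, and 55 genes were higher and 15270 lower. There Syk was -0.83, Pf4 -0.52, Fcgr1 -0.043, Cd14 -0.15, Itgam -0.25, Gata3 -0.73, Plau -0.82, Furin -2.37, Nrp1 -2.32, Pik3cb -1.31, Mapk3 -2.38, Map2k1 -2.75, Ptprj -1.89, Ptpn1 -2.43, Ptpn2 -2.76, Ccl2 -0.51, Myc -2.11, Ier3 -2.22 and Csf1r -1.01. With fibroblast markers, Pdgfa was 0.75, Pdgfb 1.96, Pdgfc 0.048, Pdgfra -0.57, Pdgfrb -0.48 and Shc1 0.20, 2 members were higher and 0 lower, and 8333 genes were higher and 630 lower. With pericyte and smooth muscle markers, Pdgfa was 1.57, Pdgfb 2.82, Pdgfc 0.86, Pdgfd 0.26, Pdgfra 0.24 and Pdgfrb 0.32, 3 members were higher and 0 lower, and 12018 genes were higher and 221 lower. Pdgfb was called higher by DESeq2 (0.95) and when all genes with at least 1 count were tested (0.97), as 1 member higher in each case and at an adjusted p under 0.1. Pdgfd (-1.55) was also called lower at an adjusted p under 0.1. At 0.05 it was called lower with at least 1 count (-1.56) and with at least 10 counts in every library (-1.62). With at least 1 count, 4174 genes were higher and 3376 lower, and with at least 10 counts, 3358 were higher and 2777 lower. DESeq2 size factors, and a fit lacking mitochondrial and rRNA-like genes, changed no member's call.

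With each library left out in turn, log2 fold changes ran from -0.35 to -0.08 for Pdgfa, 0.41 to 1.36 for Pdgfb, -0.99 to -0.84 for Pdgfc, -2.30 to -1.10 for Pdgfd, -1.67 to -1.44 for Pdgfra and -1.64 to -1.29 for Pdgfrb. Members called ran from 0 to 1 higher and from 2 to 4 lower. Genes called ran from 1478 (without M8) to 5010 (without M10) higher and from 807 (without M8) to 4745 (without M10) lower, with 2094 and 1226 without M7 and 4330 and 4498 without M9. The Pdgfd:Pdgfrb log2 difference ran from -1.002 (without M9) to 0.56 (without M10), and the Pdgfb:Pdgfrb difference from 1.71 to 3.02. The labels give no shared replicate numbers, so no block was fitted.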
